A study of Rattus norvegicus with 20 samples.

Results

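The inflammasome components Nlrp3, Casp1, Casp4, Pycard, Gsdmd, Aim2 and P2rx7 are 7 genes, listed by name with earlier results of these data known. A gene was read from a probe set of the array when the platform's annotation gave that probe set the gene's symbol and no other symbol. By this rule 5 of the 7 genes were measured, out of 14217 genes on the array, and each had 1 probe set: Pycard (1389873_at), Casp1 (1369186_at), Casp4 (1387818_at), Gsdmd (1385001_at) and P2rx7 (1387718_at). Nlrp3 and Aim2 matched no probe set, so nothing below describes them.

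The study sought blood transcripts that differ between rats before an overdose of acetaminophen (APAP) and go with the liver injury that follows. RNA of red-cell-lysed blood from male Wistar rats, an outbred strain, was hybridised to 20 Affymetrix rat expression arrays, with 1 array per sample. The 5 rats called resistant and the 5 called susceptible were the extremes of serum alanine aminotransferase, an enzyme released by injured liver cells, after dosing. Each rat was bled 1 week before dosing (predose) and 24 h after 1200 mg/kg of APAP by mouth, for which it had fasted 12 h (postdose), which made 4 groups of 5 arrays: resistant predose, resistant postdose, susceptible predose and susceptible postdose. The sub-groups were named from the injury itself, so they are not genotypes or treatments. No vehicle-dosed rats were among the arrays, and fasting, the day of bleeding and APAP cannot be told apart in a postdose minus predose change. The labels give the retro-orbital plexus for both bleeds, while the methods give the inferior vena cava for the postdose bleed. The same 10 rats were bled at both times, but no label ties a replicate number to a rat. P-values therefore measure the spread between arrays treated as separate samples.

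An inflammasome is a complex that assembles in the cytosol of myeloid and other cells when a sensor such as NLRP3 or AIM2 detects damage or infection. The adaptor ASC, encoded by Pycard, links the sensor to caspase-1 (Casp1), which cleaves pro-interleukin-1β and pro-interleukin-18 and also gasdermin D (Gsdmd), whose fragment forms pores in the plasma membrane and ends in pyroptotic cell death. Caspase-11, encoded by Casp4 in the rat, binds bacterial lipopolysaccharide inside the cell and cleaves gasdermin D directly, and the ATP-gated channel P2X7 (P2rx7) lets potassium leave the cell, a trigger of NLRP3. In APAP injury, dying hepatocytes release such danger signals, and the part that the inflammasome plays in the liver is debated.

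Every level below is a log2 signal with the median of each array set to 1000, and every difference is a difference of such log2 values, so that 1 stands for a doubling. A probe set's level cannot be compared with that of another probe set, because probes bind with different strength. A gene was called when the Benjamini-Hochberg adjusted p of limma, computed over all probe sets tested, was under 0.05. No component was called in any of the 5 comparisons. Before dosing, Pycard, Casp1, Casp4 and Gsdmd differed between the sub-groups by 0.03 to 0.18 in size. The postdose mean of Casp4 was 0.83 below the predose mean in resistant rats and 0.36 above it in susceptible rats, which are the values that stood furthest apart. Pycard, Casp1 and Gsdmd had postdose minus predose differences between -0.21 and 0.26 in both sub-groups. P2rx7, close to the background of the arrays, differed by -0.42 before dosing. Its changes were -0.47 in resistant and -0.54 in susceptible rats, with wide intervals.

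Among the 5 components, 0 were called by limma in susceptible against resistant rats before dosing, against 0.00329% of all probe sets tested (0% higher and 0.00329% lower). The count was 0 of 5 in postdose against predose resistant rats, where 5.11% of all probe sets were called (2.51% higher and 2.60% lower). It was 0 of 5 in postdose against predose susceptible rats, where 6.66% were called (3.86% higher and 2.80% lower). After dosing, 0 of 5 differed between susceptible and resistant rats, with 0.143% of all probe sets called (0.124% higher and 0.0195% lower). The difference between the changes of the sub-groups, susceptible minus resistant, gave 0 of 5 and 0% of all probe sets.

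At an unadjusted limma p under 0.05 the counts of components were 0 before dosing (3.74% of all probe sets), 1 for the change in resistant rats (17.1%), 0 for the change in susceptible rats (19.0%), 2 between the sub-groups after dosing (9.18%) and 1 for the difference in change (6.90%). The methods' t-test gave the same counts as limma at an unadjusted p under 0.05 in the first 4 of these comparisons and called 0 components after adjustment. No component had groups that did not overlap. Groups did not overlap for 0.529% of all probe sets before dosing, 6.76% for the change in resistant rats, 6.83% for the change in susceptible rats and 2.23% between the sub-groups after dosing. The median log2 difference of the 5 components was 0.03 before dosing, -0.09 for the change in resistant rats, 0.22 for the change in susceptible rats, 0.29 between the sub-groups after dosing and 0.26 for the difference in change. Over all probe sets tested these medians lay between -0.02 and 0.02, which the scaling of every array to the same median brings about. With 5 components, each median is the uncalled value of a single gene: Casp1 for the change in resistant rats and Pycard otherwise. A shift of the components as a set was not tested.

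**Figure D1:**
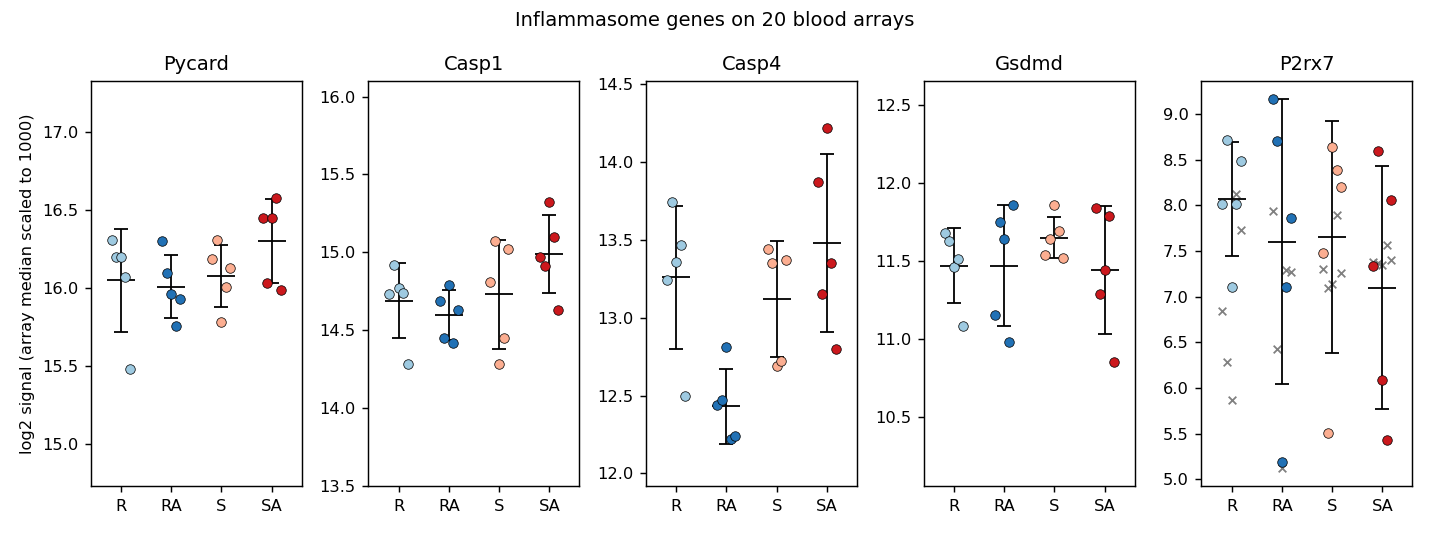
Log2 signal (y axis) of the 5 measured inflammasome components on the 20 arrays, by group (x axis: R resistant predose, RA resistant postdose, S susceptible predose, SA susceptible postdose), with 1 point per array and bars for the mean ± SD of 5 arrays. The P2rx7 panel covers a wider range of log2 signal than the others, and its grey crosses are the brightest bacterial negative control of each array. Of the susceptible postdose arrays, 4 of 5 susceptible postdose arrays lie above all 5 resistant postdose arrays for Casp4, while the groups overlap throughout for Gsdmd and P2rx7.

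Pycard encodes the adaptor of the complex. Its log2 signal was 16.31, 16.20, 16.20, 16.07 and 15.48 on resistant predose replicates 1 to 5, and 16.30, 16.10, 15.96, 15.76 and 15.93 on resistant postdose replicates 1 to 5. It was 16.19, 16.31, 15.78, 16.01 and 16.13 on susceptible predose replicates 1 to 5, and 16.45, 16.03, 16.45, 16.58 and 15.99 on susceptible postdose replicates 1 to 5. All 4 groups overlap, and resistant predose replicate 5 stands below the other 19 arrays. Means were 16.05 ± 0.33 (SD, n = 5) in resistant predose, 16.01 ± 0.20 in resistant postdose, 16.08 ± 0.20 in susceptible predose and 16.30 ± 0.27 in susceptible postdose arrays. The change after dosing was -0.04 (95% interval -0.39 to 0.31, adjusted p = 0.943) in resistant and 0.22 (-0.14 to 0.57, adjusted p = 0.547) in susceptible rats. Between the sub-groups the difference was 0.03 (-0.36 to 0.43, adjusted p = 1.0) before dosing and 0.29 (-0.06 to 0.64, adjusted p = 0.631) after dosing. The difference between the changes was 0.26 (-0.24 to 0.75, adjusted p = 0.889). On every array the Pycard probe set was brighter than at least 97.1% of the probe sets.

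Casp1 encodes caspase-1, the protease that matures interleukin-1β. Resistant predose replicates 1 to 5 had a log2 signal of 14.73, 14.92, 14.77, 14.74 and 14.28, and resistant postdose replicates 1 to 5 had 14.69, 14.45, 14.79, 14.42 and 14.63. Susceptible predose replicates 1 to 5 had 14.81, 15.07, 14.28, 14.45 and 15.02, and susceptible postdose replicates 1 to 5 had 14.97, 14.91, 15.32, 15.10 and 14.63. Of the 5 susceptible postdose arrays, 4 lay above the highest resistant postdose array and replicate 5 lay among them. Means were 14.69 ± 0.24 (SD, n = 5) in resistant predose, 14.60 ± 0.16 in resistant postdose, 14.73 ± 0.35 in susceptible predose and 14.99 ± 0.25 in susceptible postdose arrays. The postdose difference, susceptible minus resistant, was 0.39 (95% interval 0.04 to 0.74), with a limma p of 0.0321 that did not pass adjustment (adjusted p = 0.474). The difference before dosing was 0.04 (-0.39 to 0.46, adjusted p = 1.0). The changes after dosing were -0.09 (-0.45 to 0.26, adjusted p = 0.855) in resistant rats and 0.26 (-0.09 to 0.61, adjusted p = 0.448) in susceptible rats, and the difference between these changes was 0.35 (-0.15 to 0.85, adjusted p = 0.825).

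The RefSeq table of promoters, 300-base windows from 250 bases before to 50 bases after a gene's start, held 3 of the 5 measured components (Pycard, Casp1 and P2rx7). The windows were searched on both strands for the interferon-stimulated response element core (GAAA, any pair of bases, GAAA), the gamma-activated site TTCNNNGAA, which reads the same on both strands, and the NF-kappaB consensus. The Casp1 window was the 1 window of these 3 with any match, to the response element core, and is shown because Casp1 and Casp4, its neighbour in the GRCr8 annotation, had the 2 lowest unadjusted p-values of the components after dosing. It lies at chr8:10872580-10872879 of build GRCr8 on the plus strand, and the capitals mark the match, which reads on the minus strand:
Casp1 promoter: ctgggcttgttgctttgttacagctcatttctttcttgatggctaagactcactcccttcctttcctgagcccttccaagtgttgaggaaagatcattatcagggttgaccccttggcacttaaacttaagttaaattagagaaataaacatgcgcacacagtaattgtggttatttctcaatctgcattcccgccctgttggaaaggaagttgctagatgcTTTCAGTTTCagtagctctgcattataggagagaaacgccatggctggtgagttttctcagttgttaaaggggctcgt
The core is held by 3.92% of all 33469 windows, the gamma-activated site by 8.87% and the NF-kappaB consensus by 7.51%. A match describes these letters only, and no binding was measured.

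Casp4 encodes the caspase of the noncanonical pathway and was the component whose groups stood furthest apart. Its log2 signal was 13.24, 13.74, 13.36, 13.47 and 12.50 on resistant predose replicates 1 to 5, and 12.44, 12.47, 12.81, 12.22 and 12.24 on resistant postdose replicates 1 to 5. Apart from predose replicate 5, all resistant predose arrays lay above all resistant postdose arrays, and 4 of 5 postdose arrays lay below the whole predose group. On susceptible predose replicates 1 to 5 the log2 signal was 13.44, 13.35, 12.69, 12.72 and 13.37, and on susceptible postdose replicates 1 to 5 it was 13.87, 13.15, 14.22, 13.35 and 12.80. The susceptible groups overlap, with 2 postdose arrays above the highest predose array. After dosing, 4 of 5 susceptible arrays exceeded every resistant array, and susceptible replicate 5 (12.80) lay just under resistant replicate 3 (12.81).

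Mean Casp4 was 13.26 ± 0.46 (SD, n = 5) in resistant predose, 12.43 ± 0.24 in resistant postdose, 13.12 ± 0.37 in susceptible predose and 13.48 ± 0.57 in susceptible postdose arrays. In resistant rats the postdose minus predose difference was -0.83 ± 0.27 (SE; 95% interval -1.39 to -0.27), with a limma p of 0.00612 and an adjusted p of 0.0881. In susceptible rats it was 0.36 (-0.20 to 0.92, adjusted p = 0.521). The difference between these changes was 1.19 ± 0.38 (SE; 0.40 to 1.98), 2.28-fold, with a limma p of 0.00544 and an adjusted p of 0.482. After dosing, susceptible arrays were 1.04 ± 0.27 (SE; 0.48 to 1.60) higher than resistant arrays, 2.06-fold, with a limma p of 0.00102 and an adjusted p of 0.14. Casp4 ranked 224 of 30747 probe sets by p in that comparison and did not pass the threshold. Before dosing the difference was -0.15 (-0.72 to 0.43, adjusted p = 1.0).

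Casp4 was not called in resistant rats in the main fit, and passed only when its lowest resistant predose array was left out. Without resistant predose replicate 5 the difference was -1.02 with an adjusted p of 0.0257, while the adjusted p ranged from 0.0257 to 0.202 over the 19 alternative settings. The difference between the sub-groups after dosing lay between 0.86 and 1.21 over its 19 alternatives, with adjusted p between 0.0906 and 0.501. The difference in change lay between 1.0 and 1.38, with adjusted p between 0.227 and 0.68 over 27 alternatives.

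**Figure D2:**
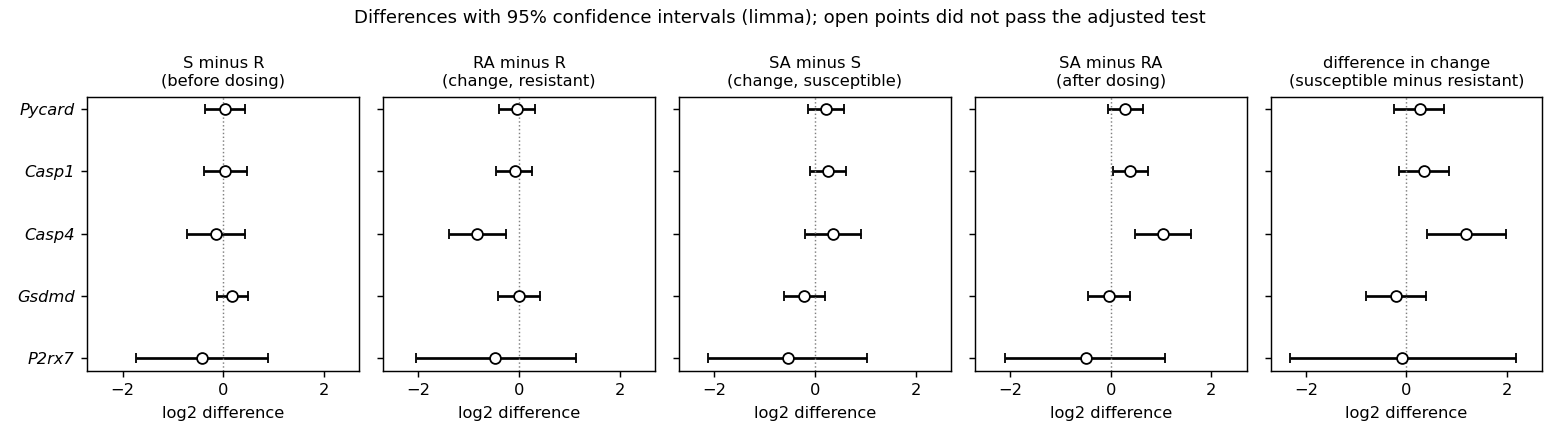
Log2 difference (x axis) of each measured component in the 5 comparisons, 1 panel each, with 95% intervals from limma as bars (R, RA, S and SA are the groups as above, and all points are open since none passed the adjusted test). The intervals of Casp4 exclude 0 for the change in resistant rats (-0.83), the difference in change (1.19) and the postdose difference between sub-groups (1.04), that of Casp1 excludes 0 for the postdose difference (0.39), and the adjusted p is above 0.05 for every point.

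Gsdmd encodes the pore-forming protein that both caspases cleave. The log2 signal was 11.68, 11.63, 11.46, 11.51 and 11.08 on resistant predose replicates 1 to 5, and 11.15, 11.75, 11.64, 10.98 and 11.86 on resistant postdose replicates 1 to 5. It was 11.54, 11.64, 11.86, 11.69 and 11.52 on susceptible predose replicates 1 to 5, and 11.84, 11.29, 11.44, 11.79 and 10.85 on susceptible postdose replicates 1 to 5. The groups overlap, and both postdose groups spread more widely than the susceptible predose group. Means were 11.47 ± 0.24 (SD, n = 5) in resistant predose, 11.47 ± 0.39 in resistant postdose, 11.65 ± 0.13 in susceptible predose and 11.44 ± 0.41 in susceptible postdose arrays. The change after dosing was 0.00 (95% interval -0.41 to 0.42, adjusted p = 0.998) in resistant and -0.21 (-0.62 to 0.21, adjusted p = 0.641) in susceptible rats. The difference between the sub-groups was 0.18 (-0.13 to 0.48, adjusted p = 1.0) before dosing and -0.03 (-0.45 to 0.38, adjusted p = 0.981) after dosing. The difference between the changes was -0.21 (-0.80 to 0.38, adjusted p = 0.942), and all 5 intervals lie within a doubling in either direction.

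P2rx7 encodes the ATP-gated channel and was close to the background of the arrays. Its log2 signal was 8.02, 8.72, 7.11, 8.02 and 8.49 on resistant predose replicates 1 to 5, and 9.16, 8.70, 5.19, 7.11 and 7.86 on resistant postdose replicates 1 to 5. On susceptible predose replicates 1 to 5 it was 7.48, 5.51, 8.64, 8.39 and 8.20, and on susceptible postdose replicates 1 to 5 it was 7.34, 8.59, 6.09, 5.43 and 8.06. On 6 of 20 arrays the signal was at or below the brightest of the 3 bacterial tryptophan-operon probe sets of the same array, which match no rat transcript, whereas the other 4 components were above it on all 20 arrays. Means were 8.07 ± 0.62 (SD, n = 5), 7.60 ± 1.56, 7.65 ± 1.27 and 7.10 ± 1.33 in resistant predose, resistant postdose, susceptible predose and susceptible postdose arrays. The changes after dosing were -0.47 (95% interval -2.05 to 1.12, adjusted p = 0.833) in resistant and -0.54 (-2.13 to 1.04, adjusted p = 0.77) in susceptible rats. Between the sub-groups the difference was -0.42 (-1.74 to 0.89, adjusted p = 1.0) before and -0.50 (-2.09 to 1.08, adjusted p = 0.898) after dosing, and the difference between the changes was -0.08 (-2.32 to 2.17, adjusted p = 0.996). With intervals this wide, a moderate change of P2rx7 was not detectable on these arrays.

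The 4 components above background shared most of their low arrays. Pycard, Casp1, Casp4 and Gsdmd were each lowest in their group on resistant predose replicate 5, resistant postdose replicate 4 and susceptible postdose replicate 5. Susceptible predose replicate 3 was the lowest of its group for Pycard, Casp1 and Casp4, but the highest for Gsdmd (11.86). The mean log2 signal of the 10 measured monocyte and macrophage markers was also lowest in its group on resistant predose replicate 5 (12.83, against 13.50 to 14.06 on the other 4 arrays) and on resistant postdose replicate 4 (13.02, against 13.20 to 13.73). It was lowest on susceptible predose replicate 3 as well (13.26), as was the neutrophil mean (12.93). The monocyte and macrophage mean was not lowest on susceptible postdose replicate 5 (13.70), where replicate 2 (12.85) was. On resistant predose replicate 5 the T cell (14.36), B cell (14.14) and blood leukocyte (16.84) means were lowest too. The neutrophil (13.19), platelet (17.38), erythroid (16.38) and liver (8.23) means were highest there. On resistant postdose replicate 4 the T cell (14.21), B cell (13.91) and NK cell (15.16) means were lowest too. The part of these markers in the components' levels was not tested, and in blood fewer cells of a type and less RNA per cell cannot be told apart.

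**Figure D3:**
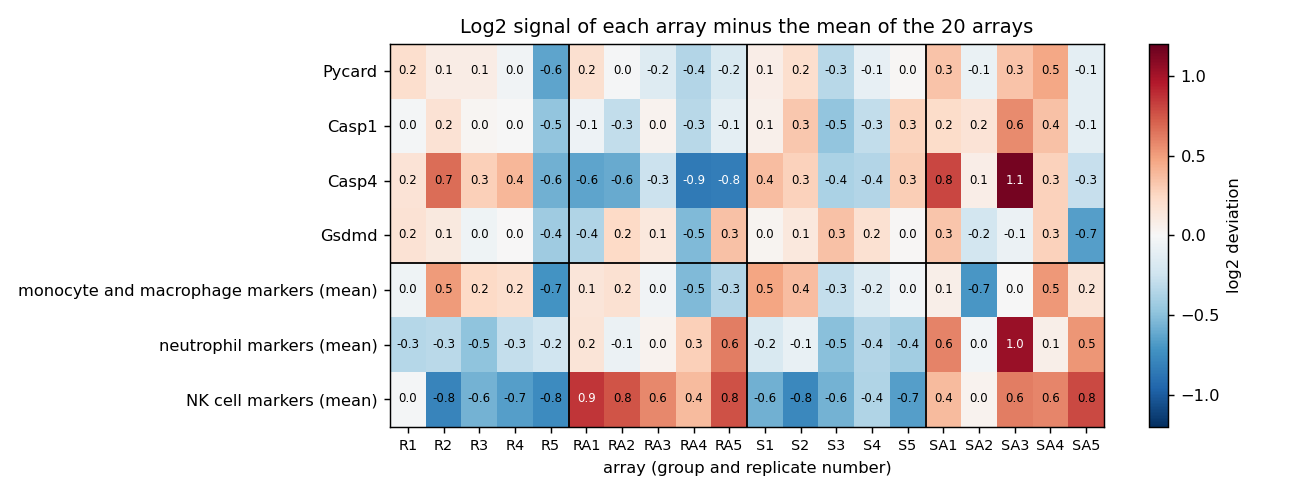
Log2 signal of each array minus the mean of the 20 arrays, as colour and as the printed number, for Pycard, Casp1, Casp4 and Gsdmd and for the mean of 3 marker lists (rows), by array (columns: R resistant predose, RA resistant postdose, S susceptible predose, SA susceptible postdose, with the replicate number). The 4 genes are blue together on resistant predose replicate 5 and resistant postdose replicate 4, as are the monocyte and macrophage markers, and on susceptible postdose replicate 5 the 4 genes are blue while those markers are not.

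The blood leukocyte markers (5 of 5 measured) had group means of 16.93 to 17.10, with 0 called by limma in the comparisons that follow, and no marker was at the level of the negative controls on all arrays. In resistant rats, postdose minus predose, neutrophil markers had a median difference of 0.44 (3 of 11 called higher) and NK cell markers of 1.13 (10 of 10 higher), while the medians were -0.06 for monocyte and macrophage markers (0 of 10), 0.01 for T cell markers (1 of 12 lower) and -0.37 for B cell markers (0 of 5). In susceptible rats the median change was 0.78 for neutrophil markers (6 of 11 called higher and 1 lower), 1.04 for NK cell markers (9 of 10 higher), -0.09 for monocyte and macrophage markers (1 of 10 higher and 3 lower), -0.13 for T cell markers (1 of 12 lower) and -0.48 for B cell markers (3 of 5 lower). Liver markers had a median change of 1.28 in susceptible rats (1 of 5 higher), with a summed signal of 974 to 2420 before and 2240 to 23400 after dosing. Between susceptible and resistant rats after dosing, the neutrophil median was 0.33 (1 of 11 higher, which was Il1r2). The medians of monocyte, NK, T and B cell markers were 0.18, -0.19, -0.12 and -0.24, with 0 called in each. The summed neutrophil signal ranged over 542000 to 775000 in resistant predose, 881000 to 1090000 in resistant postdose, 562000 to 727000 in susceptible predose and 945000 to 1470000 in susceptible postdose arrays. The summed monocyte and macrophage signal ranged over 395000 to 583000, 410000 to 600000, 495000 to 550000 and 469000 to 651000 in the same order. The part of these markers in the Casp4 and Casp1 differences, and in the pathway genes described below, was not tested.

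The genes whose log2 signal most resembled that of a component across the 20 arrays were sought among 11822 probe sets. These had 1 gene symbol and a mean log2 signal at or above the array median, and each gene was kept at its highest r. Pearson's r is given as a description, since the arrays share their groups and the highest values were picked. For Casp4 the most similar genes were Gbp4 (r = 0.97), Sp110 (0.95) and RT1-S3 (0.93). For Casp1 they were Bcl2a1 (0.92), Ifi35 (0.90) and Psma5 (0.89), and for Pycard they were Vamp8 (0.93), Cyba (0.93) and Ndufb3 (0.92). The highest values were lower for Gsdmd, with Mrpl10 (0.79), Brpf1 (0.78) and Mms19 (0.78), and for P2rx7, with Bcas3 (0.73), Nhsl3 (0.68) and Clpb (0.68).

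Around these components, 30 further genes of the inflammasome pathway were measured out of 41 names listed: 11 sensors and regulators, 6 genes of the priming signal, 6 substrates and output genes, 4 of cell death execution or other caspases, and 3 ATP and ion channels. Before dosing 0 of the 30 were called by limma, also 0 at an unadjusted p under 0.05 and 0 by the methods' t-test after adjustment. In susceptible rats 11 of 30 were called higher after dosing and 0 lower, where 6.66% of all probe sets were called. In resistant rats 3 were called higher and 2 lower, where 5.11% of all probe sets were called. After dosing, 6 were called higher in susceptible than in resistant rats and 0 lower, where 0.143% of all probe sets were called. The median log2 difference of the 30 genes was 0.42, 0.11 and 0.22 in these comparisons. In the same order, 3.86%, 2.51% and 0.124% of all probe sets were called higher. The 30 genes were listed with earlier results of these data known, which can raise their counts. Each was read from its brightest probe set, while the percentages cover all probe sets tested. The percentages are therefore not a matched background, and an excess of calls among the 30 genes was not tested. The difference in change called 0 of the 30 by limma, with 10 at an unadjusted p under 0.05 (6.90% of all probe sets) and a median of 0.28, so that none of the changes below was shown to differ between the sub-groups.

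Among the substrates, Il1b, the interleukin-1β precursor gene, rose in both sub-groups. Its mean log2 signal went from 16.33 ± 0.43 (SD, n = 5) to 17.31 ± 0.24 in resistant rats, a change of 0.98 (adjusted p = 0.0166), and from 16.18 ± 0.50 to 17.86 ± 0.17 in susceptible rats, a change of 1.69 (adjusted p = 0.000242). Both postdose groups lay above every predose array, at 17.00 to 17.56 in resistant and 17.65 to 18.13 in susceptible rats. Predose and postdose groups did not overlap for 6.76% of all probe sets in resistant and 6.83% in susceptible rats. Il18, the other cytokine that caspase-1 matures, had differences of -0.14 in resistant and -0.13 in susceptible rats, neither of which passed the test.

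Of the 3 inhibitors of these cytokines, 2 rose in susceptible rats. Il1r2, the decoy receptor for interleukin-1, rose by 2.58 (adjusted p = 5.12e-05), from 14.27 ± 0.36 (SD, n = 5) to 16.85 ± 0.73. Il18bp, which binds and neutralises interleukin-18, rose by 1.70 (adjusted p = 0.00059), from 10.44 ± 0.35 to 12.15 ± 0.53. In resistant rats the differences were 0.87 for Il1r2 (adjusted p = 0.097) and 0.27 for Il18bp, and neither passed the test. After dosing, susceptible rats were higher than resistant rats by 1.53 for Il1r2 (adjusted p = 0.0385) and by 1.59 for Il18bp (adjusted p = 0.0196). The receptor antagonist Il1rn, which is outside the naming rule, had differences of 0.39 in resistant and 0.72 in susceptible rats that did not pass the test. Il1r2 is also on the neutrophil list, whose median change was 0.78 in susceptible rats (6 of 11 higher, Il1r2 among them, and 1 lower) and 0.44 in resistant rats (3 of 11 higher). Between the sub-groups after dosing, Il1r2 was the only neutrophil marker called. The part of neutrophils in these differences was not tested.

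Of the sensors and regulators, Gbp2, an interferon-inducible GTPase of the family that coats bacteria and helps caspase-11 reach lipopolysaccharide, ranked 1 of 30747 probe sets by p between the sub-groups after dosing. Its log2 signal was 16.47 to 17.57 on susceptible postdose arrays and 14.90 to 15.55 on resistant postdose arrays. It was 14.65 to 15.90 on resistant predose arrays and 14.62 to 15.48 on susceptible predose arrays. The susceptible postdose group thus lay above the other 15 arrays, as it did for Il1b, Il1r2, Il18bp, Irf1, Tlr4, Ripk3 and Casp8. Groups did not overlap for 6.83% of all probe sets in the susceptible change and 2.23% between the sub-groups after dosing. The change was 2.03 in susceptible rats (adjusted p = 0.000144) and -0.13 in resistant rats, and the postdose difference was 1.99 (adjusted p = 0.00967). Irf1, a transcription factor of the interferon response, was 0.71 higher after dosing in susceptible rats (adjusted p = 0.00273) and 0.91 higher in them than in resistant rats (adjusted p = 0.00967). Serpinb1a, an inhibitor of neutrophil proteases and of inflammatory caspases, rose by 1.22 in resistant rats (adjusted p = 0.00494) and by 1.10 in susceptible rats (adjusted p = 0.00836).

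In the priming group, Tlr4, the cell-surface receptor for lipopolysaccharide, rose by 1.99 in susceptible rats (adjusted p = 0.00052) and was 1.88 higher in them than in resistant rats after dosing (adjusted p = 0.0196). Its difference in resistant rats was -0.07. Myd88, the adaptor of that receptor and of the interleukin-1 receptor, rose by 0.64 in resistant rats (adjusted p = 0.00974) and by 0.84 in susceptible rats (adjusted p = 0.00121). The other 4 priming genes, Cd14, Ly96, Nfkb1 and Tlr2, were not called in either sub-group.

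Of the death genes, Ripk3, the kinase of necroptosis, rose by 1.38 in susceptible rats (adjusted p = 0.000354) and was 1.11 higher in them than in resistant rats after dosing (adjusted p = 0.0266). Casp8, the apoptotic caspase that also restrains necroptosis, rose by 0.96 in susceptible rats (adjusted p = 0.00115). Ninj1, which mediates rupture of the plasma membrane after gasdermin pores have formed, fell by 0.61 on the log2 scale in resistant rats (adjusted p = 0.0475), a gene outside the naming rule that was chosen after its values were seen. Among the channels, P2rx4, another ATP-gated channel, rose by 0.84 in susceptible rats (adjusted p = 0.00851). Panx1, which releases ATP from the cell, fell by 0.43 on the log2 scale in resistant rats (adjusted p = 0.0443).

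Several of these calls were lost when 1 array was left out, some of them whichever of most arrays it was. The Panx1 call in resistant rats was kept in 2 of 10 fits that left out 1 array, without resistant predose replicate 4 and without resistant postdose replicate 2, and in the other 8 the difference was -0.46 to -0.38 (adjusted p 0.0533 to 0.118). The Ninj1 call in resistant rats was kept in 1 of 10 such fits, without resistant predose replicate 5, and in the other 9 the difference was -0.67 to -0.50 (adjusted p 0.0503 to 0.116). In a fit of the resistant arrays alone neither Panx1 (adjusted p = 0.108) nor Ninj1 (adjusted p = 0.119) passed. Of the postdose calls between sub-groups, Gbp2 and Irf1 were kept in all 10 such fits. Tlr4 lost its call without resistant postdose replicate 2 or 4 or susceptible postdose replicate 1 (1.78 to 1.90), and Il18bp without these or susceptible postdose replicate 3 (1.43 to 1.60). Ripk3 lost its call without any 1 of the 5 resistant postdose arrays or susceptible postdose replicate 1 or 3 (1.0 to 1.16), and Il1r2 kept its call only without susceptible postdose replicate 2 or 4, with 1.30 to 1.60 in the other 8 fits. By the methods' t-test with adjustment, 0 of the 6 postdose calls passed (smallest adjusted p = 0.132), 9 genes passed in susceptible rats and 1 in resistant rats. Il1r2 in resistant rats passed under quantile normalization (adjusted p = 0.048) and in a fit of the resistant arrays alone (adjusted p = 0.0466), with adjusted p of 0.0466 to 0.227 over its alternatives. In susceptible rats the 11 calls named here were kept in all 10 fits that left out 1 array, as were those of Serpinb1a, Myd88 and Il1b in resistant rats. By the methods' t-test with adjustment, Serpinb1a (adjusted p = 0.122) and P2rx4 (0.0532) did not pass in susceptible rats. Neither did Myd88 (0.0543) and Il1b (0.0908) in resistant rats. Serpinb1a also did not pass in a limma fit of the susceptible arrays alone (adjusted p = 0.0675).

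**Figure D4:**
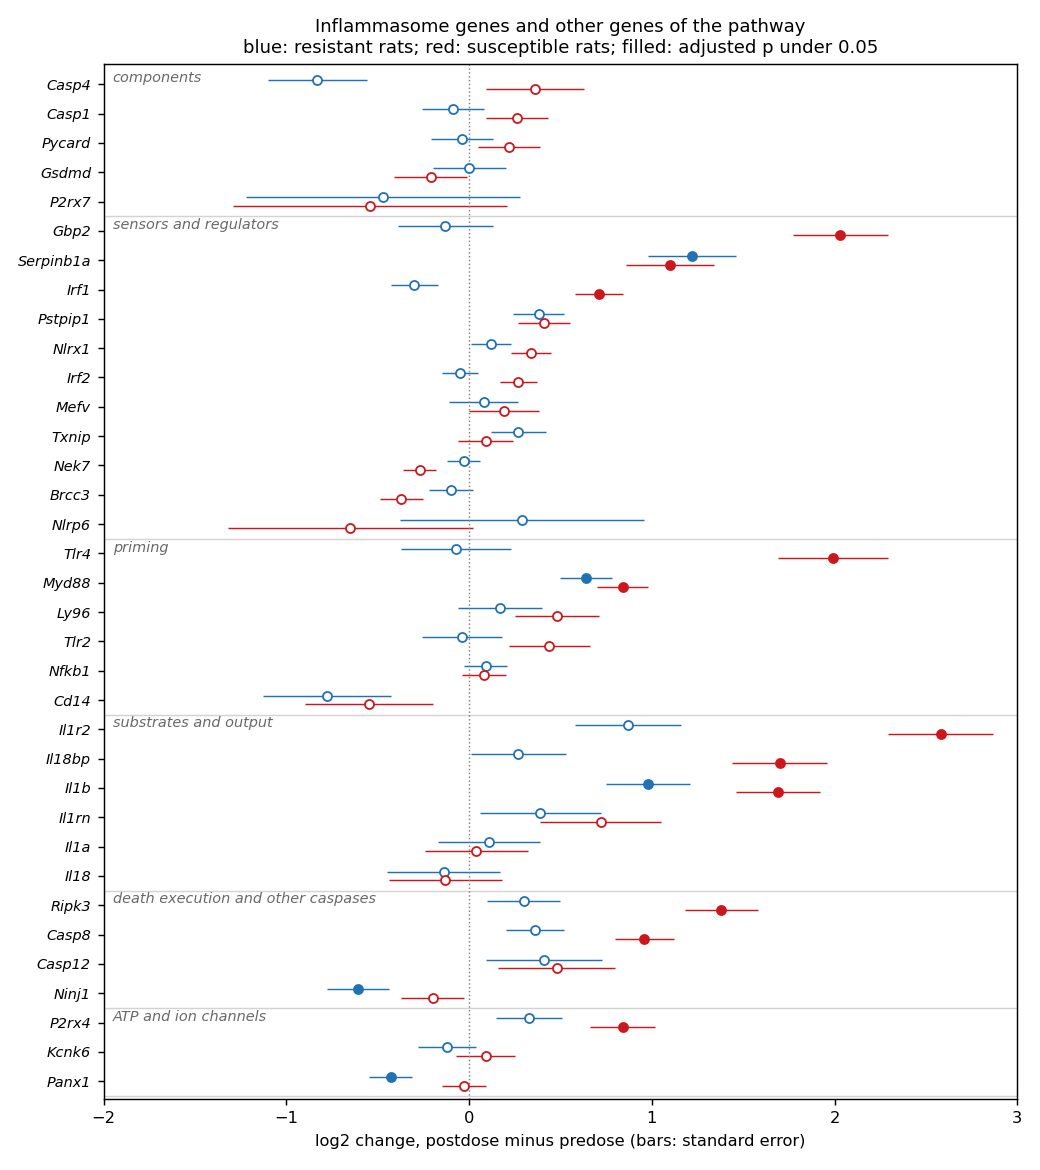
Postdose minus predose log2 change (x axis) of the 5 measured components and the 30 other pathway genes, by role, in resistant (blue) and susceptible (red) rats; bars are standard errors and filled points have an adjusted p under 0.05. Filled red points include Il1r2 (2.58), Gbp2 (2.03), Tlr4 (1.99) and Il1b (1.69), while all 5 components are open points.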

How the data were processed

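Blood RNA of 20 rat samples was hybridised to Affymetrix rat arrays, with 5 in each group. The authors deposited 1 linear intensity per probe set and array (array medians 187 to 223); the software behind these signals is not given in the sources used here, and what they were set equal on is not known. With 57 controls left out, the 31042 remaining signals of an array were multiplied so that their median became 1000, and log2 was taken. A probe set below 100 on every array of a fit was dropped, which left 30416 for the predose comparison (10 predose arrays) and 30747 for the others (all 20 arrays); no array was dropped and no value imputed. Groups were compared with lmFit and eBayes of limma 3.58.1 (R 4.3.3), with Benjamini-Hochberg adjustment over all probe sets. The fit was tested on simulated data. Genes were named by the platform's annotation, and where the pathway list had several probe sets per gene, the brightest on average was used.

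The components and the pathway and marker lists were chosen with earlier results of these data known. Pathway genes were named if they were among the 12 lowest adjusted p-values of those called, with Il1b, Il18 and Nlrc4 (no probe set) named in any case. The alternatives tried were the deposited values without scaling, quantile normalization, a minimum of 500 or none, 1 probe set per gene, a replicate block, other arrays in the fit, the methods' t-test with adjustment, a pseudocount of 100, and dropping single arrays. Precision is limited by the number of arrays. Promoters came from RefSeq (GRCr8).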

Additional observations from a re-analysis of the deposited data

Results flagged for a closer look

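In a group of 5 arrays, an array was singled out when its gap to the nearest other array was more than 0.71 of the group's whole range. Of 72 groups examined (18 genes), 5 held such an array, and chance gives about 1 in 20. For Pycard, resistant predose replicate 5 had a log2 signal of 15.48, below the 16.07 to 16.31 of the other 4 arrays. The same array was lowest for Serpinb1a, at 14.34 against 15.13 to 15.35. For Irf1, resistant predose replicate 1 was lowest, at 15.13 against 15.59 to 15.77. For Gbp2, resistant postdose replicate 3 was highest, at 15.55 against 14.90 to 15.04. For Il18, susceptible postdose replicate 2 was lowest, at 10.78 against 11.53 to 11.76. The causes were not tested.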

How the results depend on the processing

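The 5 components had 0 calls in all 5 comparisons under every alternative, apart from 1 call (Casp4) in resistant rats without resistant predose replicate 5, so that the counts with 1 array left out ran from 0 to 1 there. For the changes and their difference, a replicate block joined same-numbered arrays of a sub-group. For the comparisons between sub-groups it joined same-numbered arrays of the same bleed, which come from different rats. With these blocks, 0 components were called. The pathway counts stayed at 0, 5, 11, 6 and 0 (predose, resistant change, susceptible change, postdose, difference in change), while 1, 1719, 2250, 44 and 0 of all probe sets were called. Between the predose and postdose arrays of a sub-group, deviations of same-numbered arrays correlated at -0.164 to 0.196 over 15257 probe sets. Some predose arrays correlated best with the postdose array of their own number, and others with an array of another number. The main fits did not take the numbers as pairs, because no label ties a number to a rat.

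Of the pathway genes, the methods' t-test with adjustment called 1 instead of 5 in resistant rats and 0 instead of 6 between sub-groups after dosing, where a fit of only the arrays compared called 3. With 1 array left out, these counts ran from 3 to 4 and from 2 to 6, and from 0 to 1 for the difference in change. Under quantile normalization the postdose differences of Serpinb1a and Myd88 became -0.11 and -0.04, neither called in any setting. The causes were not tested.

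Over all probe sets, the predose count was 0 instead of 1 with a minimum of 500, with 1 probe set per gene, in the fit of all arrays, by the methods' t-test and with a pseudocount of 100, and 0 to 2 with 1 array left out. In resistant rats 1570 became 958 with 1 probe set per gene (fewer probe sets tested), 968 with only the arrays compared and 729 by the methods' t-test, and 967 to 1661 with 1 array left out. In susceptible rats 2048 became 910 with only the arrays compared and 578 by the methods' t-test, and 1332 to 2270 with 1 array left out. After dosing 44 became 73 with quantile normalization, 75 with a minimum of 500 and 0 by the methods' t-test, and 7 to 89 with 1 array left out. The difference in change gave 0 to 2.

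Uncalled differences near 0 changed sign when 1 array was left out. Their log2 values then ran from -0.06 to 0.15 for Casp1, -0.11 to 0.11 for Pycard and -0.67 to 0.11 for P2rx7 between sub-groups before dosing. In resistant rats they ran from -0.19 to 0.02 for Pycard, -0.10 to 0.12 for Gsdmd, -0.86 to 0.14 for P2rx7, -0.27 to 0.04 for Gbp2, -0.22 to 0.10 for Tlr4 and -0.45 to 0.03 for Il18. In susceptible rats they ran from -0.32 to 0.03 for Il18 and -0.08 to 0.04 for Panx1. Between sub-groups after dosing they ran from -0.16 to 0.12 for Gsdmd, -0.14 to 0.17 for Serpinb1a and -0.06 to 0.21 for Il18, and for the difference in change from -0.68 to 0.34 for P2rx7. Signals near the negative controls limit what P2rx7 can show.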

Other observations

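Casp12, which follows Casp1 and Casp4 in the GRCr8 annotation, had postdose minus predose log2 differences of 0.41 (adjusted p = 0.595, resistant) and 0.48 (adjusted p = 0.467, susceptible), and neither passed the limma test. Cd14, a monocyte co-receptor for lipopolysaccharide, had differences of -0.78 (adjusted p = 0.255, resistant) and -0.55 (adjusted p = 0.442, susceptible). Nek7, which NLRP3 needs for assembly, had a difference of -0.27 in susceptible rats (adjusted p = 0.0797) and of -0.03 in resistant rats (adjusted p = 0.902). These genes lie outside the naming rule and were chosen after their values were seen.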
